A study of Mus musculus with 8 samples.

Results

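A group of 10 genes encoding A20 and other brakes on NF-κB signaling was followed in neutrophils from mouse lungs with and without pneumococcal pneumonia. They were Tnfaip3, Tnip1, Tnip2, Tnip3, Itch, Tax1bp1, Cyld, Otulin, Irak3 and Dok3, chosen by symbol for their known roles, with earlier results of these data known. All 10 were found among the 19836 gene symbols that could be assigned to the 24625 rows of the expression table, each on 1 row. The animals of both groups were wild type mice of 6 to 12 weeks of age. They were instilled through the trachea into the left lung with 2.3 µl per g body weight of either phosphate-buffered saline (PBS) or a suspension of Streptococcus pneumoniae (SP). After 24 h, cells were pulled from lung suspensions with magnetic beads carrying an antibody to Ly6G, a surface protein of mouse neutrophils, and RNA of 4 PBS and 4 SP samples was hybridized to 1 microarray each. The study describes each sample as one taken from a mouse, while the labels do not name the animals, and p-values measure the spread between these samples. Values are log2 expression, where 1 unit is a 2-fold difference, and the number of arrays limits their precision.

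NF-κB is a family of transcription factors that is held in the cytoplasm and is released when Toll-like, interleukin-1 or tumor necrosis factor receptors are engaged. These receptors build chains of ubiquitin on adaptors and kinases, and the chains recruit the kinase complex that frees NF-κB. A20, the product of Tnfaip3, edits and shields such chains with the help of ubiquitin-binding partners. CYLD and OTULIN cut chains, and the decoy kinase IRAK-M, the product of Irak3, stalls signaling closer to the receptor. Several of these brakes are themselves NF-κB target genes, so that the pathway restrains itself. In neutrophils, NF-κB controls cytokine production and lifespan at sites of infection.

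Of the 10 genes, 8 were higher in SP than in PBS neutrophils, none was lower, and Itch and Dok3 were not called. A gene was called when its adjusted p in limma, fitted over all rows, was at most 0.05. By this rule 44.1% of all rows were called, 21.5% as higher and 22.6% as lower. At least a 2-fold increase was also met by 5 genes (Tnip1, Tnip3, Tnfaip3, Irak3 and Cyld), whereas 6.37% of all rows were 2-fold higher and 11.3% were 2-fold lower. Tnip2 (1.98-fold) and Otulin (1.99-fold) lay just below this threshold and Cyld (2.04-fold) just above it. The lowest SP value exceeded the highest PBS value for the 8 called genes, a separation that 27.2% of all rows showed upward and 21.8% downward. The median difference over the 10 genes was 1.01 log2 units, with a range of 0.14 to 3.60, compared with a median of 0.10 over all rows. Arrays of the SP group had lower medians (5.78 to 5.91) than those of the PBS group (6.06 to 6.20). Centering every array on its median moved the median of all rows to 0.38 and the share of 2-fold calls that were higher from 36.1% to 55.6%, and another quantile normalization gave 0.02 and 46.1%. In a bulk sample, fewer cells of a type and less RNA per cell cannot be told apart.

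**Figure D1:**
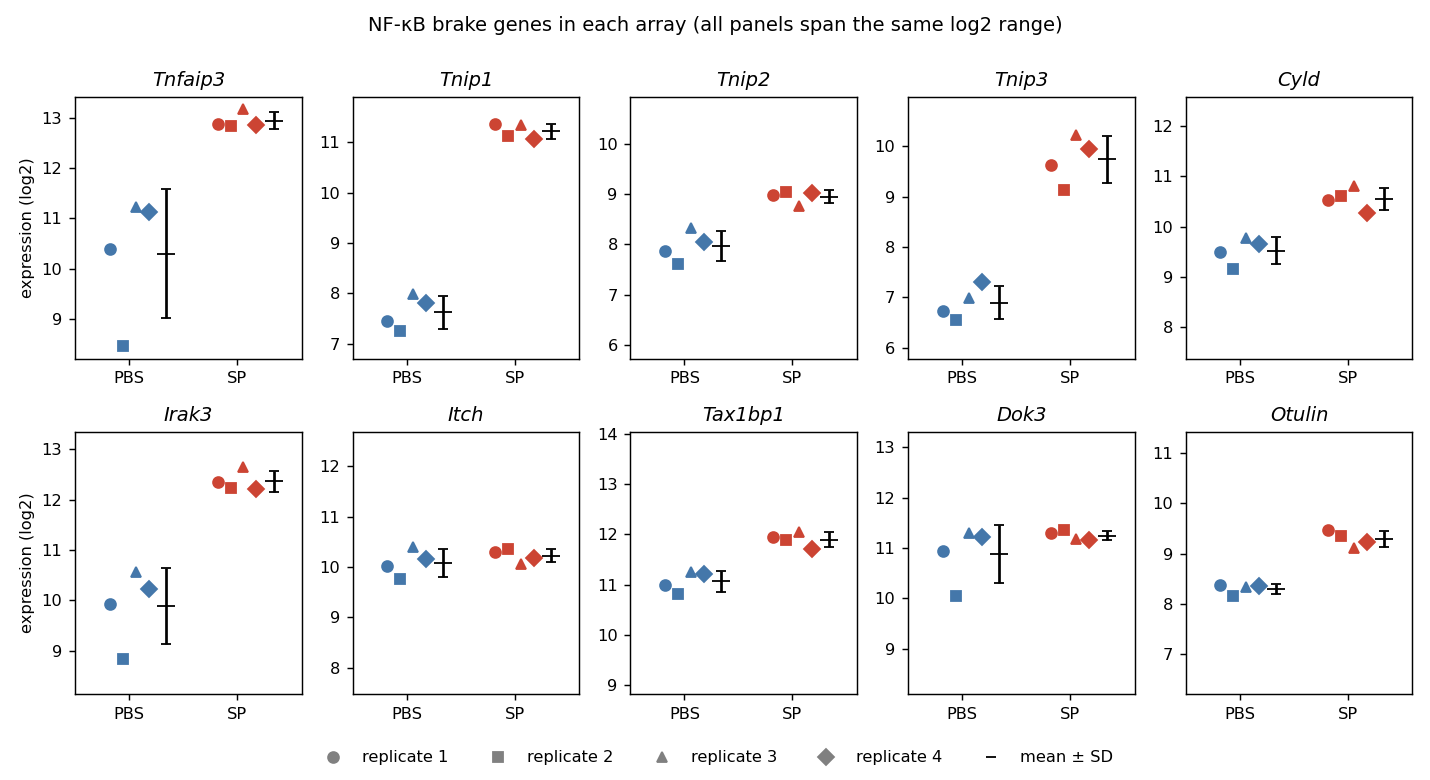
Log2 expression of the 10 genes in each PBS (blue) and SP (red) array, with the mean and SD of each group of 4, and marker shapes for the replicate number. The SP symbols lie above all PBS symbols for 8 genes and overlap them for Itch and Dok3. PBS replicate 2 (blue square) is the lowest PBS array in every panel.

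Letters of the promoter are shown for the genes called at 2-fold, a group that Cyld (2.04-fold) only just enters. Whether a match goes with the size of a change was not tested. RefSeq promoter windows (assembly GRCm38.p6, from 250 bases before to 50 after a start) were given for 9 of the genes, 12 windows in all. Itch had none in the table. Both strands were searched for the NF-κB consensus, which is named here and not spelled out, and for GGANNTTCC (a looser NF-κB form), TGANTCA (an AP-1 site) and GAAANNGAA (the core of an interferon response element). The consensus was found in 5 of the 12 windows, those of Tnfaip3, Tnip1, Tnip3, Cyld and Tax1bp1, and in 4.51% of 32851 windows of all genes. Capitals mark the match in the following lines, which are written 5′ to 3′ on the strand of the gene, 30 bases each.
Tnfaip3, 125 bases before the start, minus strand, chr10:19015516-19015545: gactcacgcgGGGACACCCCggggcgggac
Tnfaip3, 12 bases before the start, minus strand, chr10:19015411-19015440: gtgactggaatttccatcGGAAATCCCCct
Tnip1, 57 bases before the start, minus strand, chr11:54962978-54963007: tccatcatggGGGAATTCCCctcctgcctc
Tnip3, 54 bases before the start, plus strand, chr6:65590334-65590363: gagacatcctGGGAAATCCCagttacatgg
Cyld, 155 bases before the start, plus strand, chr8:88696863-88696892: ttgaccgagcGGAAAGTCCCttcagccagc
In Tnip1 the consensus was met at 3 overlapping positions, of which the middle is shown, and in Tax1bp1 it lay 34 bases after the start. The looser form was found in 2 windows, in Tnfaip3 between its consensus matches and in Cyld on the same letters as the consensus, against 4.26% of all windows. An AP-1 match was found in Tnfaip3 alone of the 9 genes, next to the upstream consensus match, against 7.81% of all windows. The second window of Tnfaip3 held none of the 4 motifs.

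Irak3 was the gene with a 2-fold increase whose windows held no match to either NF-κB form. The second of its windows held the interferon response core, which was also found in Cyld and in 8.56% of all windows.
Irak3, 102 bases before the start, minus strand, chr10:120202213-120202242: aatctcccacTTCATTTTCccacctccttt
The windows of Tnip2, Dok3 and Otulin held neither NF-κB form. A match is a run of letters and not a measured binding site, and no match says only that these letters are not in the window.

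A20 is an enzyme with both ubiquitin ligase and deubiquitinase activity and is induced by the pathway it restrains. Tnfaip3 measured 10.38, 8.46, 11.22 and 11.12 in PBS replicates 1 to 4, and 12.88, 12.84, 13.17 and 12.85 in SP replicates 1 to 4. The SP arrays were high and close together, whereas the PBS arrays were spread, with replicate 2 far below the others. The increase was 2.64 log2 units (SE 0.55, 95% interval 1.38 to 3.90, 6.24-fold), with an adjusted p of 0.00543 in limma. The PBS group had an SD of 1.28 and the SP group one of 0.16 (n = 4 each). Without PBS replicate 2 the increase was 4.08-fold (2.03 log2 units, adjusted p 0.000296 in limma), less than with it by a factor of 1.53, and the lowest increase among the 16 other settings.

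The ABIN proteins are ubiquitin-binding partners that bring A20 to its substrates, and they are encoded by Tnip1, Tnip2 and Tnip3. Tnip1 measured 7.45, 7.25, 7.98 and 7.81 in PBS and 11.36, 11.13, 11.35 and 11.06 in SP replicates 1 to 4. It had a wide gap of 3.08 log2 units between the highest PBS and the lowest SP array. The increase of 3.60 log2 units (SE 0.17, interval 3.22 to 3.98, 12.1-fold, adjusted p 4.12e-06) was the largest of the 10 genes. Tnip3, which encodes ABIN-3, measured 6.72, 6.54, 6.99 and 7.30 in PBS and 9.62, 9.14, 10.23 and 9.95 in SP. Its SP arrays were more dispersed (SD 0.47) than those of Tnip1 (SD 0.15), and none overlapped PBS. Tnip3 increased by 2.85 log2 units (SE 0.25, interval 2.28 to 3.43, 7.21-fold, adjusted p 6.81e-05). Tnip2, which encodes ABIN-2, a protein also bound to the kinase TPL2, measured 7.86, 7.62, 8.33 and 8.05 in PBS and 8.99, 9.05, 8.76 and 9.02 in SP. The groups were separate by 0.43 log2 units, and the increase was 0.99 (SE 0.15, interval 0.64 to 1.33, adjusted p 0.00114).

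The members of the ABIN family therefore differed in the size of their changes. To compare 2 genes, the value of one was subtracted from that of the other within each array and the SP and PBS arrays were compared by a two-sided exact permutation test. There were 70 arrangements, so that p could not fall below 0.0286, and 19 pairs were tested, written with earlier results known, which gave a smallest adjusted p of 0.0388. Of the 19 pairs, 14 reached this value. Without SP replicate 2 none did (smallest adjusted p 0.0543), though no difference then moved by more than 0.23 log2 units, and 11 or 12 were called without another of the SP replicates. The pairs lost without SP replicate 1, 3 or 4 were those of Tnfaip3 with Tnip2, Otulin or Cyld, and that of Cyld with Spata2. Tnip1 changed by 2.61 log2 units more than Tnip2, and Tnip3 by 1.86 more than Tnip2 (both exact p 0.0286, adjusted 0.0388). Tnip3 changed by 0.75 less than Tnip1 (exact p 0.0286, adjusted 0.0388). This last call was lost with another quantile normalization and without any of the PBS replicates. Tnfaip3 changed by 1.65 more than Tnip2 (exact p 0.0286, adjusted 0.0388). Its differences from Tnip1 (-0.96, exact p 0.143, adjusted 0.16) and from Tnip3 (-0.21, exact p 0.8, adjusted 0.8) were not called. Without PBS replicate 2, the difference between Tnfaip3 and Tnip1 was -1.45 and was called (exact permutation test, adjusted p 0.0388). Every difference of Tnfaip3 from another gene includes its low value in that array. Leaving the array out moved no difference of the 19 pairs by more than 0.56 log2 units.

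**Figure D2:**
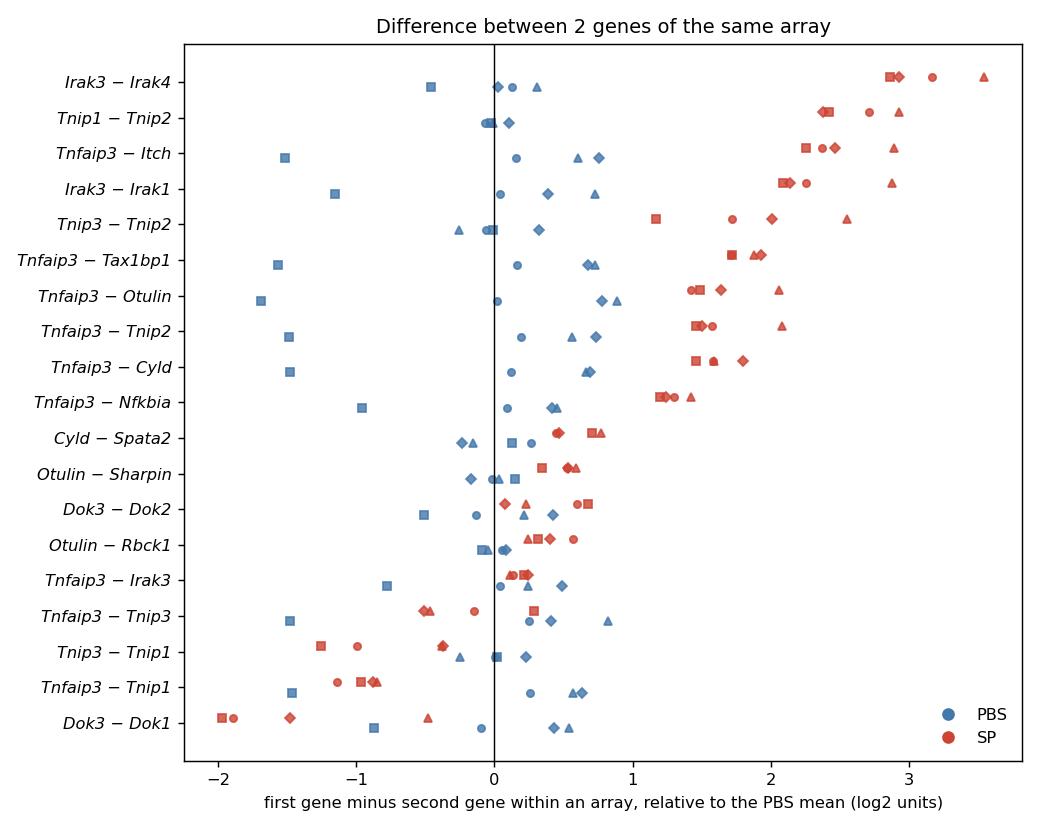
Difference between 2 genes of the same array, in log2 units relative to the mean of the PBS arrays, for the 19 pairs; blue symbols are PBS and red symbols SP, with shapes for replicates 1 to 4 as circle, square, triangle and diamond. The groups are apart for 14 pairs and overlap for 5, namely Tnfaip3 with Irak3, Tnip3 and Tnip1, and Dok3 with Dok2 and Dok1.

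ITCH is a ubiquitin ligase, and TAX1BP1 is an adaptor that links it and A20 to their substrates. Itch measured 10.01, 9.76, 10.40 and 10.15 in PBS and 10.29, 10.36, 10.06 and 10.18 in SP. The groups overlapped, and the difference of 0.14 log2 units (SE 0.14, interval -0.18 to 0.46) had an adjusted p of 0.405 in limma. With arrays centered on their medians the difference was 0.42 and was called (adjusted p 0.038 in limma). Tax1bp1 measured 10.99, 10.81, 11.26 and 11.21 in PBS and 11.94, 11.88, 12.05 and 11.70 in SP. Every SP array exceeded every PBS array, by at least 0.44 log2 units. The increase was 0.83 (SE 0.12, interval 0.55 to 1.11, 1.78-fold, adjusted p 0.00102). Tnfaip3 changed by 2.50 log2 units more than Itch and by 1.81 more than Tax1bp1 (both exact p 0.0286, adjusted 0.0388).

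CYLD and OTULIN are deubiquitinases. OTULIN cuts linear chains only, and CYLD cuts linear and lysine-linked chains. Cyld measured 9.49, 9.16, 9.78 and 9.65 in PBS and 10.52, 10.60, 10.80 and 10.27 in SP. The groups were separate by 0.49 log2 units, and the increase was 1.03 (SE 0.16, interval 0.67 to 1.39, adjusted p 0.00115). Otulin measured 8.37, 8.16, 8.34 and 8.35 in PBS and 9.47, 9.36, 9.12 and 9.23 in SP. Its PBS arrays were the closest together of the 10 genes (SD 0.10), and the gap to SP was 0.75 log2 units. It increased by 0.99 (SE 0.10, interval 0.77 to 1.21, adjusted p 0.000111). Tnfaip3 changed by 1.61 more than Cyld and by 1.65 more than Otulin (both exact p 0.0286, adjusted 0.0388). Without PBS replicate 2 the increases were closer together, at 2.03 for Tnfaip3, 0.91 for Cyld and 0.94 for Otulin. The calls of the 2-fold threshold changed with the setting: Cyld was 1.88-fold higher without PBS replicate 2 and 1.91-fold with another quantile normalization, which gave 2.19-fold for Otulin and 2.32-fold for Tnip2.

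OTULIN acts against the linear ubiquitin assembly complex, of which Rbck1 and Sharpin encode subunits, and SPATA2 bridges CYLD to this complex. Rbck1 increased by 0.60 log2 units (SE 0.08, adjusted p 0.000391) and Sharpin by 0.50 (SE 0.14, adjusted p 0.024), and the call of Sharpin was lost in 5 of the other settings. Otulin changed more than either, by 0.39 relative to Rbck1 and by 0.49 relative to Sharpin (both exact p 0.0286, adjusted 0.0388). Spata2 measured 7.84 to 8.73 in PBS and 8.61 to 8.88 in SP and was not called (difference 0.43, SE 0.21, adjusted p 0.119 in limma). Cyld changed by 0.60 more than Spata2 (exact p 0.0286, adjusted 0.0388), a call that was lost with another quantile normalization and without SP replicate 3. Of 12 measured genes of the linear ubiquitin system and partner deubiquitinases, 5 were higher, 1 was lower and 6 were not called, with a median difference of 0.31. Otud7a, counted as higher, was a dim row (3.95 to 4.39 over all arrays). Usp25, a deubiquitinase of TRAF adaptors, was the only one of them with a 2-fold increase (1.21 log2 units, SE 0.17, adjusted p 0.00084).

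IRAK-M is a member of the IRAK kinase family without effective kinase activity, which prevents IRAK1 and IRAK4 from signaling and is associated with tolerance to repeated stimulation. Irak3 measured 9.93, 8.83, 10.57 and 10.22 in PBS and 12.35, 12.22, 12.65 and 12.21 in SP. The SP arrays lay within a narrow band and the PBS arrays were spread, with replicate 2 the lowest, as for Tnfaip3. Irak3 increased by 2.47 log2 units (SE 0.34, interval 1.70 to 3.24, 5.52-fold, adjusted p 0.000628), and by 2.11 without PBS replicate 2 (adjusted p 0.000117 in limma). Its change did not differ from that of Tnfaip3 beyond the spread between arrays (difference 0.17, exact p 0.743, adjusted 0.784). IRAK1 and IRAK4 are the active kinases on which IRAK-M acts. Irak1 measured 8.35 to 8.51 in PBS and 8.29 to 8.65 in SP (difference 0.13, SE 0.10, adjusted p 0.285 in limma), and was called as higher in 4 of the other settings, at up to 0.41 log2 units. Irak4 measured 9.93 to 10.89 in PBS and 9.74 to 9.98 in SP and fell by 0.66 log2 units (SE 0.20, adjusted p 0.0298), a call that was lost in 8 of the other settings. Irak3 changed by 2.34 more than Irak1 and by 3.13 more than Irak4 (both exact p 0.0286, adjusted 0.0388).

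DOK-3 is an adaptor that dampens signaling from Toll-like and immunoreceptors in myeloid cells. Dok3 measured 10.95, 10.05, 11.30 and 11.22 in PBS and 11.30, 11.36, 11.19 and 11.17 in SP. All SP arrays lay within the range of the PBS arrays or just above it. The difference of 0.37 log2 units (SE 0.25, interval -0.21 to 0.95) had an adjusted p of 0.243 in limma. It was 0.09 (adjusted p 0.485 in limma) without PBS replicate 2, and 0.65 with arrays centered on their medians, where it was called (adjusted p 0.048 in limma). Dok1, a related adaptor, measured 6.24 to 6.53 in PBS and 8.67, 8.80, 7.15 and 8.12 in SP, an increase of 1.82 (SE 0.33, 3.54-fold, adjusted p 0.00271). Its lowest SP array was replicate 3. The change of Dok3 was 1.45 smaller than that of Dok1, with an exact p of 0.0571 (adjusted 0.0724), and limma on the within-array differences called it (adjusted p 0.0153). Dok2 was not called (-0.03, SE 0.15, adjusted p 0.89). The change of Dok3 was 0.40 larger than that of Dok2, a difference that was not called (exact p 0.143, adjusted 0.16).

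**Figure D3:**
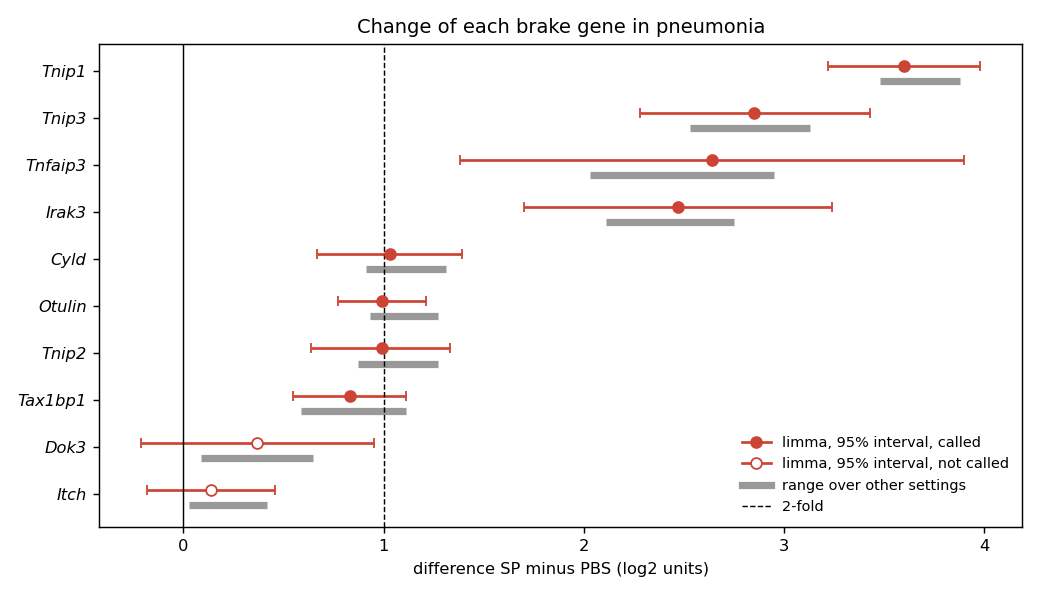
Difference SP minus PBS of each of the 10 genes in log2 units with its 95% interval from limma (red; filled when called), and the range of the difference over the 16 other settings (grey bars). Tnip1, Tnip3, Tnfaip3 and Irak3 lie between 2.47 and 3.60, Cyld, Otulin, Tnip2 and Tax1bp1 between 0.83 and 1.03, and the intervals of Dok3 and Itch include 0.

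The PBS arrays differed among themselves in a way that the 10 genes shared. PBS replicate 2 held the lowest PBS value of all 10 genes, at a mean of 0.59 log2 units below the group means, and PBS replicate 3 held the highest value of 8. Over all rows, replicate 2 was the lowest PBS array in 36.3% and replicate 3 the highest in 32.8%. Among SP arrays, replicate 4 was the lowest for 5 genes (27% of all rows), and replicate 3 was the highest for 5 and the lowest for 3 (41.1% and 33.9% of all rows). The mean of the 10 genes was 9.22, 8.67, 9.62 and 9.51 in PBS and 10.87, 10.79, 10.94 and 10.76 in SP, so that the spread of the SP arrays was small.

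Levels of cell type markers also moved between the groups and between the PBS arrays. According to the study, neutrophil purity was assessed for the pneumonia samples, and no purity is given for PBS samples. The study also states that mRNA of Ly6G, the sorting antigen, was high in all samples. Ly6g had no matched row here, and the neutrophil gene S100a8 measured 12.79 to 13.32 over all arrays. The mean of 10 neutrophil markers was 12.15 to 12.41 in PBS and 11.51 to 12.76 in SP, and 3 of them were lower in SP (Retnlg, Mmp8 and Mmp9) and none higher. All of 6 B cell, 6 ciliated and 4 club cell markers, 6 of 8 alveolar type 2 and 7 of 8 endothelial markers were lower in SP, as was 1 of 6 fibroblast markers. Of 10 alveolar macrophage markers, 7 were at least 2-fold lower and Chil3 was higher. Among the monocyte and macrophage markers Ccr2 and Adgre1 were higher, and 5 (Csf1r, C1qa, C1qb, C1qc and Cx3cr1) were not called. Of 7 T cell markers, 2 were higher and 5 were not called. The mean of monocyte and macrophage markers was 7.97 to 8.87 in PBS and 8.06 to 9.50 in SP. SP replicate 3 had the lowest SP mean of these markers (8.06) and the highest of neutrophil markers (12.76), and in it Tnfaip3 (13.17), Irak3 (12.65), Tnip3 (10.23), Cyld (10.80) and Tax1bp1 (12.05) had their highest SP value, and Tnip2 (8.76), Otulin (9.12) and Itch (10.06) their lowest. PBS replicate 2 had the highest mean of ciliated (10.08), alveolar type 2 (12.65) and endothelial markers (11.39) among PBS arrays, and the lowest of neutrophil (12.15) and monocyte and macrophage markers (7.97). Single genes weigh in the neutrophil means. In SP replicate 3 Camp measured 10.94 and Ltf 12.1, against 7.6 to 8.17 and 9.69 to 10.22 in the other SP arrays. In PBS replicate 2 Camp was the lowest of the PBS arrays (7.07) and Ltf the highest (11.35). The part of these cell types in the changes of the brake genes was not tested.

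**Figure D4:**
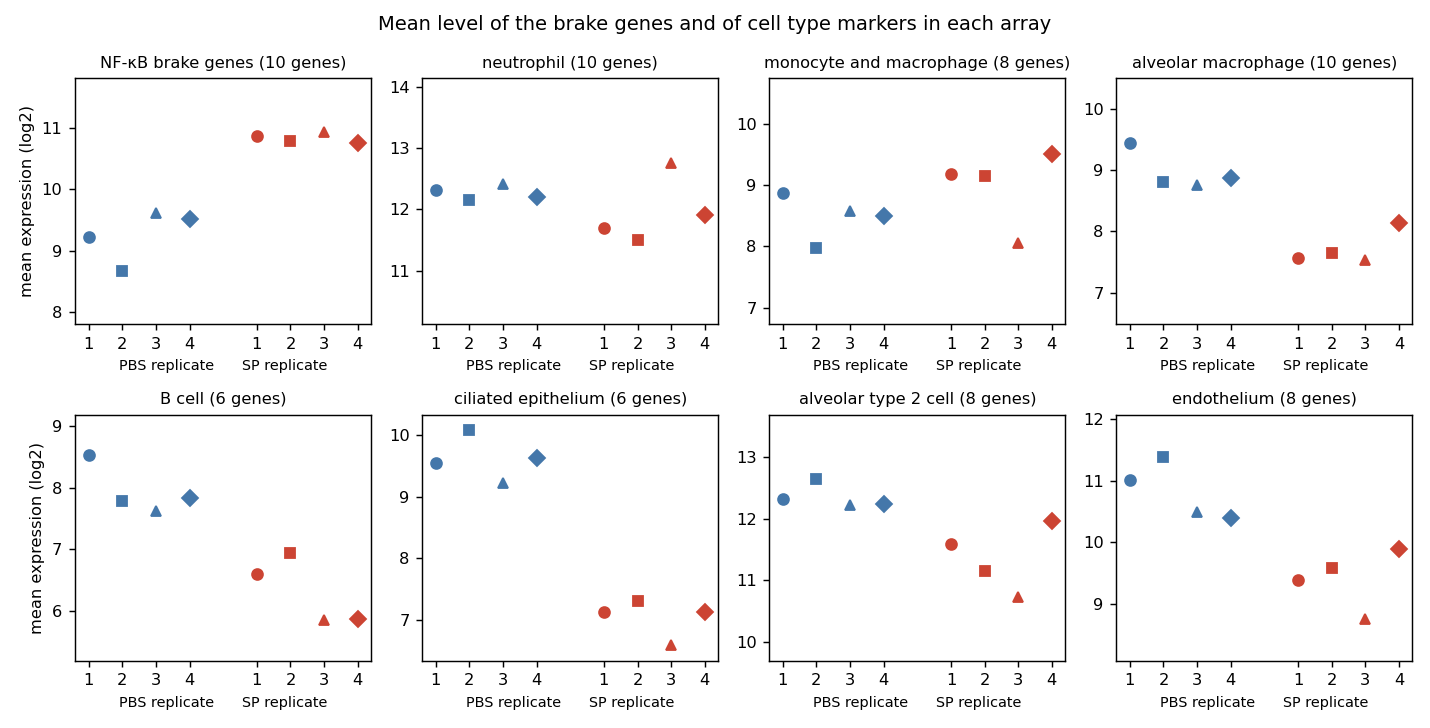
Mean log2 expression of the 10 brake genes and of 7 marker lists in each array, by replicate number (PBS blue, SP red); all panels span the same log2 range. The brake genes separate the groups (8.67 to 9.62 in PBS, 10.76 to 10.94 in SP), and ciliated, alveolar type 2 and endothelial markers are highest in PBS replicate 2.

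The receptor-proximal machinery on which these brakes act was increased in part. Of 25 measured genes, 15 were higher, 2 were lower and 8 were not called, with a median difference of 0.53 log2 units. The 10 with a 2-fold increase were largely ubiquitin ligases and adaptors at the receptors. They were the TRAF genes Traf1 (2.66, SE 0.16), Traf3 (2.34, SE 0.13), Traf6 (2.19, SE 0.13) and Traf2 (1.16, SE 0.13), the kinases Ripk2 (1.54, SE 0.11) and Ripk1 (1.15, SE 0.20), the ligases Birc2 (1.26, SE 0.11) and Birc3 (1.20, SE 0.25), the adaptor Tradd (1.26, SE 0.16) and Ikbkg (1.17, SE 0.12), which encodes the ubiquitin-binding subunit of the IκB kinase. Traf6, which encodes the ligase downstream of IRAK kinases, measured 8.63 to 9.05 in PBS and 10.80 to 11.28 in SP. Ripk1, a substrate of A20, measured 9.03 to 9.96 in PBS and 10.56 to 10.89 in SP. The groups did not overlap for either gene, and the PBS replicate 2 array was the lowest for both.

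Other brakes on NF-κB and Toll-like receptor signaling were higher for 14 of 21 genes, lower for 2 (Sigirr and Tnfrsf21) and not called for 5, with a median difference of 1.08. The 12 with a 2-fold increase included the IκB genes, whose proteins hold NF-κB in the cytoplasm. Nfkbie increased by 2.98 (SE 0.45), Nfkbib by 1.69 (SE 0.20) and Nfkbia by 1.35 (SE 0.27). Tnfaip3 changed by 1.29 more than Nfkbia (exact p 0.0286, adjusted 0.0388). Socs1, a suppressor of cytokine signaling, increased by 4.67 (SE 0.23) and Nlrc5 by 4.47 (SE 0.25), values above the 3.60 of Tnip1, although these differences were not tested. Zc3h12a, which encodes the RNase Regnase-1, increased by 2.71 (SE 0.34) and Il1rn, the interleukin-1 receptor antagonist, by 2.64 (SE 0.37). N4bp1 (1.72), Trafd1 (1.71), Tollip (1.12), Inpp5d (1.08) and Tank (1.02) completed this group.

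The relatives of Dok3 and Itch, the genes that were not called, were listed as well. In the DOK family and its partners, 6 of 9 measured genes were higher and none lower, with a median of 0.37. Of the 6, Dok5 (3.91 to 4.37 over all arrays) and Dok6 (4.08 to 4.66) were dim rows below the array medians, with differences of 0.31 and 0.37. Dok1 and the phosphatase gene Inpp5d, which also counts among the other brakes, reached 2-fold. Of 10 ligases and adaptors of the NEDD4 family, to which ITCH belongs, 2 were higher, 6 were lower and 2 were not called, with a median of -0.47. Wwp2 increased by 1.46 (SE 0.17) and the ITCH activator gene Ndfip2 by 1.02 (SE 0.12). Ndfip1, the relative of Ndfip2 in this list, was called as lower (-0.46, SE 0.12, adjusted p 0.0183 in limma). Nedd4l fell by 1.77 (SE 0.18), Nedd4 by 1.44 (SE 0.27) and Hecw2 by 1.14 (SE 0.33). All of the 3 were at their highest in PBS replicate 2, which was the highest PBS array in 31.9% of all rows. This array also had the highest endothelial and ciliated marker means, and a part of these cell types in the 3 falls was not tested. The call of Hecw2 was lost in 5 of the other settings.

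**Figure D5:**
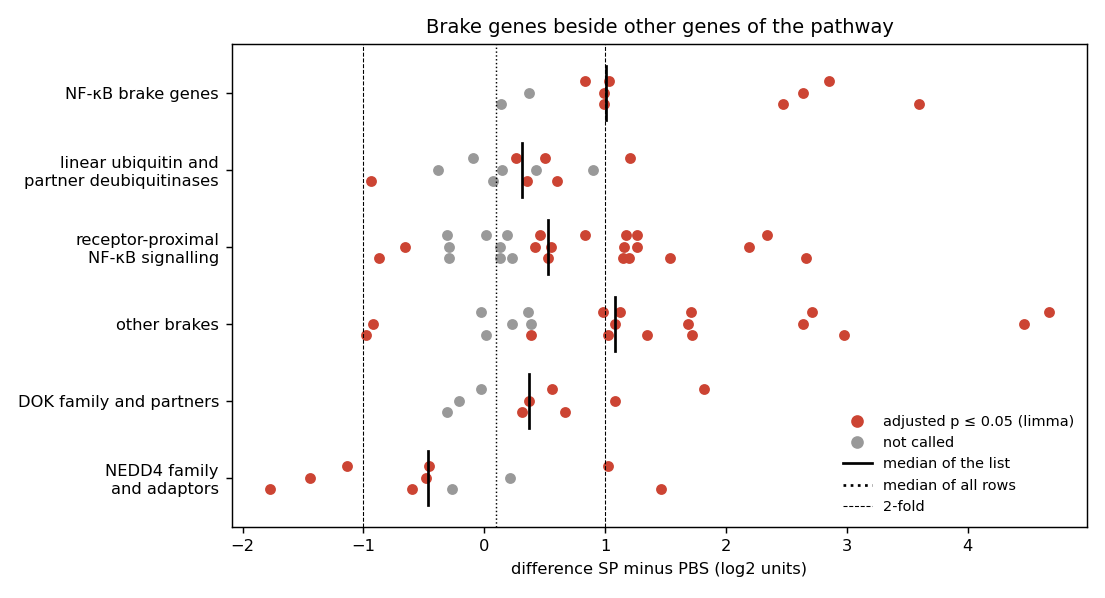
Difference SP minus PBS in log2 units of every measured gene in 6 lists, 1 symbol per gene (red, adjusted p at most 0.05 in limma; grey, not called), with the median of each list (solid bar), the median of all rows (dotted line) and 2-fold differences (dashed lines). The medians are 1.01 for the A20-type genes, 0.31 for the linear ubiquitin list, 0.53 for receptor-proximal genes, 1.08 for other brakes, 0.37 for the DOK list and -0.47 for the NEDD4 list.

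Genes with a profile like that of each 2-fold increased gene were sought by the root mean square difference of row-centered log2 values over the 8 arrays, as a description without a test. Closest to Tnfaip3 were Hcar2 (0.181), Rsad2 (0.188), Lrrc25 (0.228), Oasl1 (0.24) and Nfkbie (0.27), with increases of 4.88-fold to 8.04-fold. Closest to Irak3 were Oas1g (0.0903), Gadd45b (0.127) and Ddx60 (0.142). Oasl1, Rsad2, Oas1g and Ddx60 are known as interferon-stimulated genes, and Nfkbie is one of the IκB genes named above. Closest to Tnip1 were Cldn1 (0.148), Lrp8 (0.163) and Zeb2os (0.191), to Tnip3 Ccdc86 (0.257), Mir221 (0.28) and Sowahc (0.286), and to Cyld Tceanc (0.0513), Tox4 (0.0803) and Amn1 (0.0809). The measure reads the size of the change together with the spread within each group, so the low PBS replicate 2 values of Tnfaip3 and Irak3 weigh in their lists.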

How the data were processed

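Lung neutrophils of 4 PBS and 4 SP samples were measured on Affymetrix Mouse Gene 1.1 ST arrays, and groups and replicate numbers followed the sample titles. The authors deposited log2 values made by robust multi-array averaging (background correction, quantile normalization, summarization of probes per gene or transcript). The submitters' processing notes name Affymetrix Expression Console, RMA and Partek. Values are relative within an array, so a change in total RNA cannot be read from them. RefSeq row identifiers were matched to symbols of assembly GRCm38.p6 (19915 of 24625 rows, 80.9%). The row with the highest mean stood for a gene on several rows.

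Rows were compared with limma (version 3.58.1, R 4.3.3; lmFit and eBayes, two-sided, no covariates, Benjamini-Hochberg over all rows), called at an adjusted p of 0.05 and, additionally, at 2-fold. The fit was first tested on simulated data. Differences within an array were compared by exact permutation (Python 3.11.15). Promoter windows were searched on both strands. The 10 genes, the pairs and the lists were chosen with earlier results of these data known. Every gene of the 10, the 2-fold calls of each pathway list, the relatives used in pairs, and the 3 most alike rows (5 for Tnfaip3) were to be named. The result of a listed marker gene is not reported here. Irak2, Peli1 and Rnf31 had no matched row and were not analysed here. The alternatives comprised a robust prior with trend, the methods' t-test (an ANOVA of the groups), array weights, median centering, another quantile normalization, a filter on low rows, 1 row per symbol, the replicate number as a block, and leaving out each array.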

Additional observations from a re-analysis of the deposited data

Results flagged for a closer look

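Samples that stood apart within their group were sought in the 20 groups of 4 arrays formed by the 10 genes, by the gap of the highest or lowest array to the next divided by the range of the group. An array was taken as apart above the 95% critical value of Dixon, which chance gives in about 1 of 20 groups. Tnfaip3 was apart in SP replicate 3, where it measured 13.17 (ratio 0.855) against 12.84 to 12.88 in the other SP arrays. Otulin was apart in PBS replicate 2, where it measured 8.16 (ratio 0.843) against 8.34 to 8.37 in the other PBS arrays. The low value of Tnfaip3 in PBS replicate 2 did not pass this limit.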

How the results depend on the processing

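Of 160 recomputed values of the 10 genes (16 other settings each), 158 kept their direction and call, and the other 2 were the calls of Itch and Dok3 after centering. Centering gave 18255 called rows in place of 10860, 2375 rows higher by 2-fold in place of 1568, and 8 of the 10 genes higher by 2-fold in place of 5. Leaving out each array in turn gave 4 (without PBS replicate 2) to 7 genes at 2-fold, 8200 to 10907 called rows, and 0 to 14 called pairs, the 0 being without SP replicate 2. With the replicate number as a block, 0 of 19 pairs were called by the sign-flip test, whose smallest p is 0.125, and 9842 rows and the same numbers of the 10 genes (8 called, 5 at 2-fold) were called. Same-numbered PBS and SP arrays correlated in their deviations at 0.0156, 0.0304, 0.35 and -0.274, so the numbers were not taken as pairs. Limma on the within-array differences called 15 pairs. Of 1211 values of other listed genes, 53 lost and 38 gained a call and 1 reversed, Ube2d3 with another quantile normalization (-0.16, adjusted p 0.0471). The smallest exact p of 4 against 4 arrays, and the small number of arrays, limit all pair tests.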
